A study of Mus musculus with 6 samples.

Results

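The genes described here are 10 cell cycle regulators that the literature lists as targets of the microRNA miR-16: the cyclins Ccnd1, Ccnd2, Ccnd3, Ccne1 and Ccne2, the kinase Cdk6, the transcription factor E2f3, the phosphatase Cdc25a and the kinases Wee1 and Chek1. The rule takes them by gene symbol, and it was set with earlier results of these data known. They are 10 of 28786 genes named on the arrays and have 21 of 41174 probes. Both groups were primary cultures of the mouse mammary tumour C4HD, from female BALB/c mice. They were transfected at 30 nM with either pre-miR-16, which cells process into miR-16, or pre-miR-Control, a scrambled RNA that yields no known mammalian microRNA. After 48 h, RNA from 3 biological replicates per condition was hybridised to 1-colour Agilent arrays. The tumours arose under the progestin medroxyprogesterone acetate, given at 40 mg every 3 months, and the donor animals of both groups carried a depot of it. Both groups also received the transfection reagent siPORT NeoFX. The cultures were the epithelial-enriched fraction of dissociated tumours, obtained by repeated sedimentation, and the ages of the animals are not given in the sources used here. The design asks which transcripts respond to forced miR-16 in an ErbB-2 positive tumour.

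A microRNA guides a silencing complex to messenger RNAs that pair with its seed, the bases near its 5′ end, and the bound messenger is then translated less or degraded sooner. In the G1 phase of the cell cycle, D cyclins activate Cdk4 and Cdk6, and E cyclins activate Cdk2. These kinases phosphorylate the retinoblastoma protein, which releases E2F factors to switch on genes of DNA synthesis. Cdc25a removes the inhibitory phosphate that Wee1 places on cyclin-dependent kinases, and Chek1 restrains Cdc25a when DNA is damaged. In mammary epithelium, cyclin D1 is the D cyclin best known for its role downstream of ErbB-2 and of steroid hormones.

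The transfected microRNA has the same seed as several others, so its sequence is shown with those of its relatives, from the RefSeq table for build GRCm38.p6. Capitals mark bases 2 to 8, the seed, and the mouse genome carries miR-16-5p at 2 loci, chromosome 3 from 69009918 to 69009939 on the plus strand and chromosome 14 from 61631936 to 61631957 on the minus strand.
miR-16-5p: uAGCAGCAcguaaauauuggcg
miR-15a-5p: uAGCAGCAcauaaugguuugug
miR-15b-5p: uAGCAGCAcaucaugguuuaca
miR-195a-5p: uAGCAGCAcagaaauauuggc
miR-497a-5p: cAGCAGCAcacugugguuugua
miR-322-5p: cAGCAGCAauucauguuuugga
These 6 share all 7 seed bases and differ mostly after them. Counted base by base from the 5′ end, miR-195a-5p equals miR-16-5p at 19 positions, miR-15a-5p at 16 and miR-497a-5p at 11. The table lists the same seed for miR-195b, miR-6342, miR-6353 and miR-6419 as well.

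Array probes are 60 bases of the transcript's own strand, so a probe can hold letters that pair with the seed. Such letters were found in 3 member probes, shown here as windows of 28 bases read 5′ to 3′ from the probes, with the pairing letters in capitals. For Ccne1 and Cdc25a these are TGCTGCT, which pairs with bases 2 to 8 of miR-16, and for a second probe of Ccnd2 they are GCTGCTA, which pairs with bases 2 to 7 and ends in an A. The Ccne1 letters are also followed by an A, so that window holds both strings.
Ccne1: cttattttgtaaggTGCTGCTatgtcta
Cdc25a: gaaaagccgccaagTGCTGCTggccaaa
Ccnd2: tgctgactaaagtaGCTGCTAcctaagg
TGCTGCT was present in 2 of the 21 member probes, against 0.544% of all probes on the array, where its reverse complement was present in 0.444%. GCTGCTA was present in 2 member probes, of Ccnd2 and Ccne1, and in 0.26% of all probes (reverse complement 0.228%). A probe covers a small piece of a transcript, and neither letters inside it nor their absence say where miR-16 binds. Across the array, 154 kept probes held TGCTGCT, of which 39 were called lower (25.3%) and 24 higher (15.6%), with a median log2 change of -0.144. A further 49 kept probes held GCTGCTA without TGCTGCT, of which 15 were called lower (30.6%) and 8 higher (16.3%), with a median of -0.243. Of all kept probes 31.3% were called lower and 15.2% higher, with a median of -0.195, which lies between the other two medians.

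Levels below are log2 processed signals minus the array's 75th percentile, and changes are log2 fold changes ± standard error, with pre-miR-16 as numerator, fitted in limma and with p adjusted by Benjamini and Hochberg over every gene tested. A gene was called at an adjusted p under 0.05. The 75th percentile of the signal was 626 to 911 units on the 6 arrays, the share of spots well above background was 57.2% to 64.0%, and saturation affected 0 spots. Slide 1 carried replicate 1 of both groups, slide 2 carried control replicates 2 and 3 with pre-miR-16 replicate 2, and slide 3 carried pre-miR-16 replicate 3 alone. All 10 members passed the filter on dim probes through at least 1 probe, and 18 of their 21 probes were kept. With 3 arrays against 3, an exact permutation test of a single gene cannot give a p below 0.1, and the number of arrays limits the precision of every value. Replicate numbers are those of the scanner files. In the authors' deposited log2 table, the column of pre-miR-16 replicate 1 tracks the scanner file of replicate 2 more closely than its own, and the reverse (Spearman over kept probes 0.999 in both cases, against 0.985 with the own file), so statements about a single pre-miR-16 array name a scanner file.

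No member was lower in the pre-miR-16 cultures by the test, and Ccnd2, Cdk6 and Chek1 were higher. Of all genes, 49.1% were called, 33.1% lower and 16% higher, so that 3 of 10 members called higher and 0 called lower stand beside a background in which falls outnumbered rises. The members' median change was 0.26 and that of all genes -0.20. Levels of the 2 groups did not overlap for 5 members, Ccnd1, Ccnd2, Ccne1, Cdk6 and Chek1, against 61.4% of all genes. At probe level 6 of the 18 kept member probes were called higher and 0 lower, where 46.5% of all kept probes were called, 15.2% higher and 31.3% lower. These 6 include all 3 probes of Ccnd2, so they are not separate genes. The split between rises and falls depends on scaling: with arrays scaled on their spike-in probes the median of all genes moved from -0.20 to 0.235 and the share of calls that were rises from 32.5% to 82.6%, with 28.5% to 37.8% under the other scalings. Spike-in probes read 3.84 to 3.96 above the 75th percentile on the control arrays and 3.18 to 3.63 above it on the pre-miR-16 arrays. Of 9 housekeeping genes tested, Ppia was called higher (0.52) and Ywhaz lower (-0.53), the latter not with spike-in scaling or without any one of the controls, and their median change was -0.11.

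**Figure D1:**
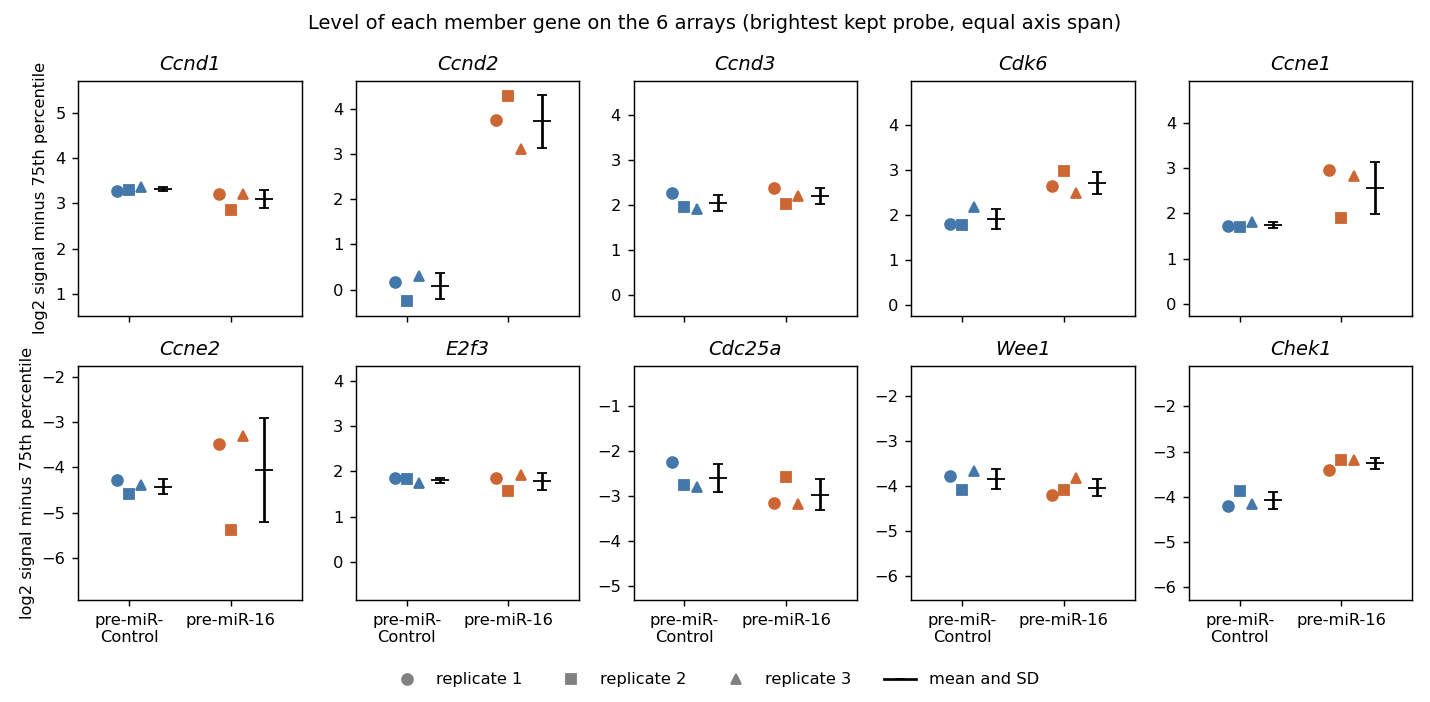
Level of each gene on the 6 arrays, as log2 processed signal minus the array's 75th percentile, at its brightest kept probe. Points are arrays (circle, square and triangle for replicates 1, 2 and 3), bars show the mean and SD of 3, and each panel spans the same number of log2 units around its own centre. Ccnd2 stands 3.65 higher in the pre-miR-16 cultures, while Ccne1 and Ccne2 are high on replicates 1 and 3 and not on replicate 2.

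The 3 D cyclins, which bind the same kinases, differed widely from one another. Ccnd1, the D cyclin best known in mammary tumours, read 3.27, 3.30 and 3.37 in the controls and 3.21, 2.86 and 3.21 in the pre-miR-16 cultures. The groups did not overlap, yet the gap was small, with replicate 2 lowest. The change was -0.22 ± 0.12 (adjusted p = 0.177, 95% interval -0.53 to 0.08), or -0.07 within slide 1 and -0.48 within slide 2, and it was 0.21 with spike-in scaling. The single Ccnd1 probe, printed as 10 spots, maps to an unplaced part of chromosome 7 (7568179 to 7568238, build mm7 in the files).

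Ccnd2, a D cyclin that many stromal and blood cells use, had the largest change of the 10 members. Its brightest probe (chromosome 6, 127163669 to 127163728, mm7) read 0.17, -0.25 and 0.30 in the controls and 3.76, 4.29 and 3.12 in the pre-miR-16 cultures. In units of processed signal the controls lay at 704, 547 and 861 and the pre-miR-16 arrays at 10092, 14433 and 7907. Every pre-miR-16 array was far above every control, and replicate 2 was the highest. The change was 3.65 ± 0.31, or 12.6-fold (95% interval 7.4 to 21.3; adjusted p = 3.50e-04), with 3.59 within slide 1 and 4.27 within slide 2. Other probes of Ccnd2, at 127154070 to 127154129 and 127173178 to 127173237, gave 3.82 ± 0.32 and 3.66 ± 0.32, both called. The first of these is the probe whose window holds GCTGCTA, shown above.

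Ccnd3, the D cyclin of widest tissue range, read 2.26, 1.96 and 1.92 in the controls and 2.38, 2.01 and 2.21 in the pre-miR-16 cultures. The groups overlapped, and the change of 0.16 ± 0.14 did not pass (adjusted p = 0.396, 95% interval -0.19 to 0.51). Its single probe lies on chromosome 17, 45735858 to 45735917 (mm7).

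Cdk6, the catalytic partner of D cyclins together with Cdk4, read 1.80, 1.77 and 2.17 in the controls and 2.65, 2.98 and 2.50 in the pre-miR-16 cultures. As for Ccnd2, the groups did not overlap and replicate 2 was the highest array. The change was 0.79 ± 0.17, or 1.73-fold (95% interval 1.30 to 2.31; adjusted p = 0.0107), with 0.85 within slide 1 and 1.00 within slide 2. A dimmer probe of Cdk6 gave 0.35 ± 0.15 (adjusted p = 0.101) with overlapping groups, and 0.13 under the normexp background correction. A further probe was well above background on 0 of 3 control and 2 of 3 pre-miR-16 arrays and was not tested. The 2 tested probes lie apart on chromosome 5 in mm7, the brighter at 3535293 to 3535352 and the dimmer split over 3479226 to 3521510.

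**Figure D2:**
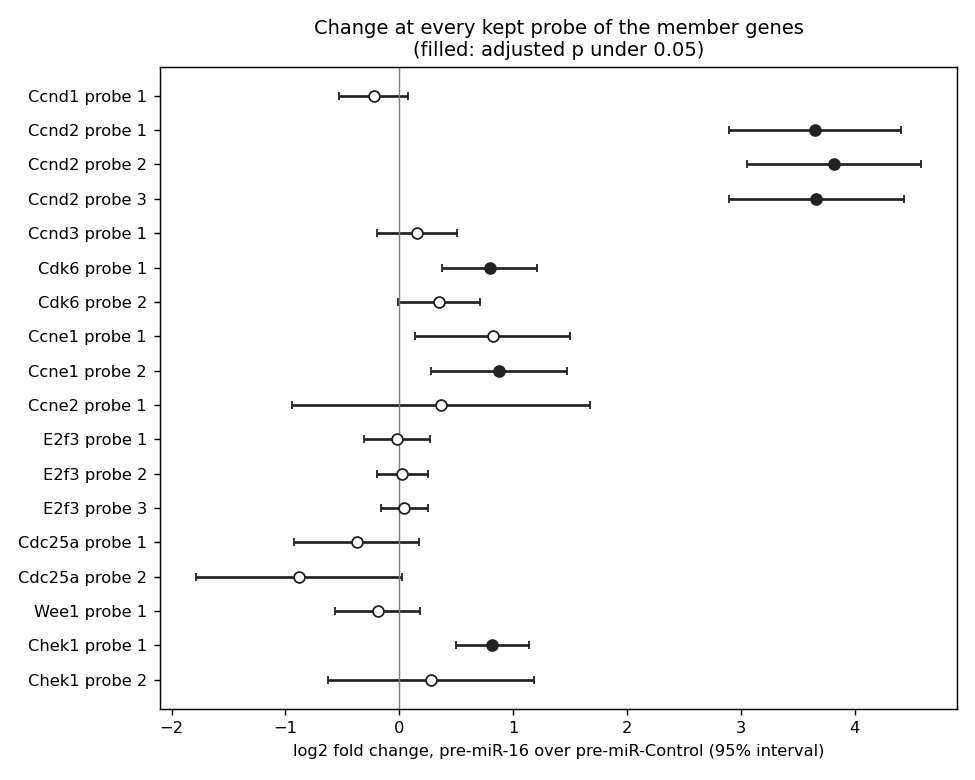
Log2 fold change of each of the 18 kept probes, pre-miR-16 over pre-miR-Control, with its 95% interval from the fit over 23827 kept probes; filled points have an adjusted p under 0.05. All 3 Ccnd2 probes sit between 3.65 and 3.82, whereas the paired probes of Cdk6 and of Chek1 differ in size and in call.

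Ccne1, the cyclin that drives Cdk2 at the start of DNA synthesis, split the pre-miR-16 cultures. It read 1.71, 1.70 and 1.82 in the controls and 2.97, 1.89 and 2.82 in the pre-miR-16 cultures. Replicates 1 and 3 were more than 1 log2 unit above the controls and replicate 2 was just above them, so the groups did not overlap but the spread was wide. The change was 0.82 ± 0.28 (adjusted p = 0.0523, 95% interval 0.14 to 1.5), with 1.26 within slide 1 and 0.14 within slide 2. Without pre-miR-16 replicate 2 it was 1.15 (adjusted p = 5.37e-04). The second Ccne1 probe, listed at the same position (chromosome 7, 34990690 to 34990713, mm7), read -2.33, -2.60 and -2.47 in the controls and -1.30, -2.16 and -1.32 in the pre-miR-16 cultures. It showed the same order of the pre-miR-16 arrays and was called, at 0.87 ± 0.25 (adjusted p = 0.0287 over all kept probes). The brighter probe is the one whose window holds TGCTGCT.

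Ccne2, the second E cyclin, was dim and split the arrays in the same way. It read -4.28, -4.60 and -4.40 in the controls and -3.48, -5.39 and -3.31 in the pre-miR-16 cultures, where replicate 2 was not well above background. Replicates 1 and 3 were above all controls and replicate 2 was below all of them. The change was 0.37 ± 0.54 (adjusted p = 0.601, 95% interval -0.95 to 1.69), with 0.80 within slide 1 and -0.89 within slide 2. Without pre-miR-16 replicate 2 it was 1.03 (adjusted p = 0.00223). A second probe, above background on 0 of 3 control and 2 of 3 pre-miR-16 arrays, was not tested. It read -5.70, -6.00 and -5.89 in the controls and -4.55, -7.51 and -4.61 in the pre-miR-16 cultures.

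E2f3, an activating E2F factor, was close to level. Its brightest probe (chromosome 13, 29272158 to 29272217, mm7) read 1.85, 1.83 and 1.74 in the controls and 1.86, 1.57 and 1.92 in the pre-miR-16 cultures. The groups overlapped, with replicate 2 lowest, and the change was -0.02 ± 0.12 (adjusted p = 0.888, 95% interval -0.31 to 0.27). The other tested probes gave 0.05 ± 0.08 and 0.03 ± 0.09, and with spike-in scaling the brightest gave 0.41 (adjusted p = 0.218). A further probe was not well above background on any array.

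Cdc25a, the phosphatase that activates Cdk2 and Cdk1, was the member with the lowest estimate. Its brighter probe (chromosome 9, 109589547 to 109589609, mm7), the one with TGCTGCT, read -2.24, -2.75 and -2.79 in the controls and -3.16, -2.57 and -3.18 in the pre-miR-16 cultures. Replicates 1 and 3 were below all controls and replicate 2 lay among them. The change was -0.38 ± 0.23 (adjusted p = 0.212, 95% interval -0.92 to 0.17), with -0.92 within slide 1 and 0.20 within slide 2. Without pre-miR-16 replicate 2 it was -0.58 (adjusted p = 0.0489), and with spike-in scaling 0.06. The dimmer probe read -4.79, -4.66 and -4.51 in the controls and -5.74, -4.67 and -6.20 in the pre-miR-16 cultures, where 1 of 3 arrays was well above background. Again replicates 1 and 3 were below all controls and replicate 2 lay among them, while the order of the controls differed. The change at this probe was -0.88 ± 0.38 (adjusted p = 0.0989), or -0.40 under normexp (adjusted p = 0.0206).

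Wee1, the kinase that opposes Cdc25a, read -3.78, -4.09 and -3.68 in the controls and -4.19, -4.10 and -3.83 in the pre-miR-16 cultures. The groups overlapped, and the change was -0.19 ± 0.15 (adjusted p = 0.331, 95% interval -0.56 to 0.18), near the median of all genes. With spike-in scaling it was 0.24. Its single probe lies on chromosome 7, 106054918 to 106054977 (mm7).

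Chek1, the checkpoint kinase upstream of Cdc25a, was dim and higher in the pre-miR-16 cultures. Its brighter probe (chromosome 9, 36636248 to 36636307, mm7) read -4.21, -3.86 and -4.17 in the controls and -3.42, -3.19 and -3.19 in the pre-miR-16 cultures. In units of processed signal these were 33.8, 44.7 and 38.7 against 69.7, 80.9 and 99.8, and the groups did not overlap. The change was 0.82 ± 0.13, or 1.76-fold (95% interval 1.41 to 2.20; adjusted p = 0.00376), with 0.79 within slide 1 and 0.83 within slide 2. The size was smaller under other processing, at 0.26 under normexp and 0.35 in the authors' deposited log2 values, whose background treatment is not given, still called in both. The second probe read -4.46, -4.47 and -4.40 in the controls and -3.97, -5.04 and -3.49 in the pre-miR-16 cultures. There replicate 2 was below all controls, as for Ccne2, and the change was 0.28 ± 0.37 (adjusted p = 0.563). Without that array it was 0.72 (adjusted p = 0.0151). With the mean of both probes Chek1 gave 0.55 and was no longer called (adjusted p = 0.062).

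The members thus fell into unlike patterns over the 3 pre-miR-16 cultures. For the E cyclins replicate 2 was low, at 1.89 against a mean of 2.89 on replicates 1 and 3 for Ccne1 and at -5.39 against -3.39 for Ccne2. Cdc25a was the mirror image, at -2.57 against -3.17. In each of these 3 genes replicate 2 lay near or past the control mean. For Ccnd2 and Cdk6 replicate 2 was the array farthest from the controls, at 4.29 against 3.44 and at 2.98 against 2.58. Wee1, and Chek1 at its brighter probe, showed a gap of only -0.08 and 0.12 between replicate 2 and the mean of the other arrays. At the second Chek1 probe replicate 2 was low, at -5.04 against -3.97 on replicate 1 and -3.49 on replicate 3.

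**Figure D3:**
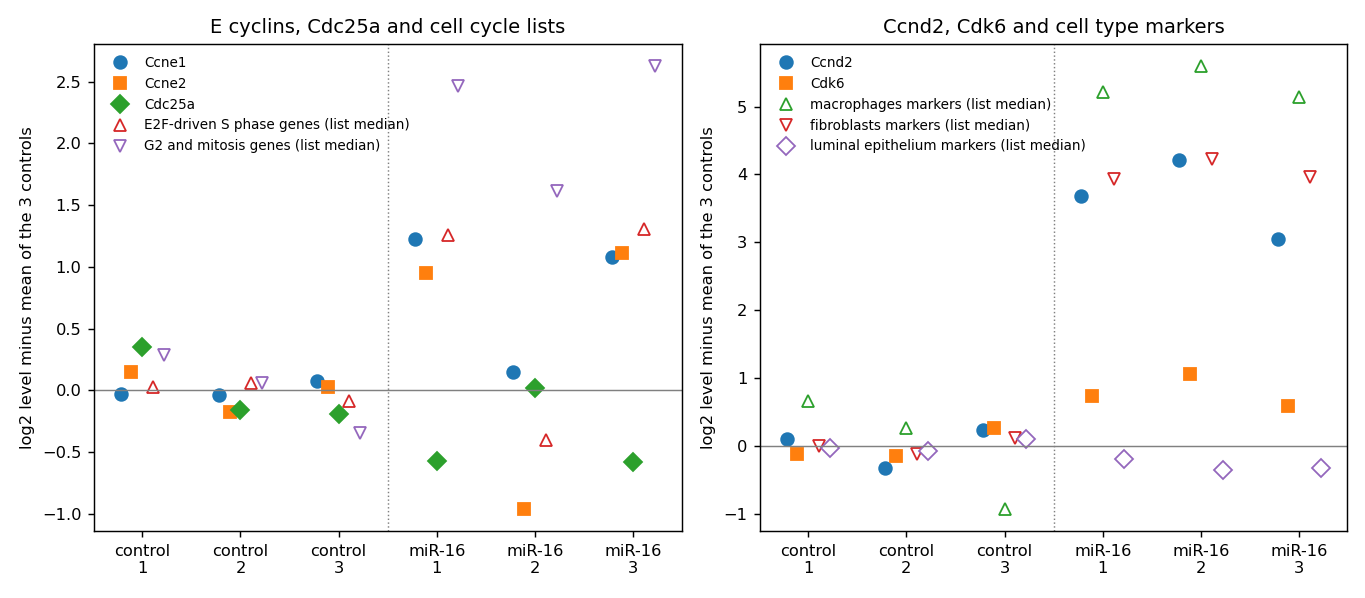
Log2 level minus the mean of the 3 controls on each array, for single genes (filled) and for medians of gene lists (open), with points spread sideways for legibility. Each median spans genes of unlike brightness, and the gene at its middle can differ between arrays. On the left, Ccne1, Ccne2 and the medians of S phase and mitosis genes are high on pre-miR-16 replicates 1 and 3 and lower on replicate 2, while Cdc25a is low on replicates 1 and 3. On the right, Ccnd2, Cdk6 and the medians of the macrophage and fibroblast markers are high on all 3 pre-miR-16 arrays. Single markers can differ, and Csf1r and Dcn were not called. On pre-miR-16 replicate 3 the macrophage median is the level of Csf1r.

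The genes that E2F factors switch on followed the order of the E cyclins. Of 22 tested genes of DNA synthesis, 5 were called higher and 0 lower, with a median change of 0.43. Their median level was 0.05, 0.08 and -0.06 in the controls and 1.28, -0.38 and 1.33 in the pre-miR-16 cultures, so replicate 2 was below the controls by this median. Genes of unlike brightness enter it, and those at its middle differ between arrays. They were Tk1 and Gins1 on control replicate 1, and Prim1 and Tk1 on pre-miR-16 replicate 1. On pre-miR-16 replicate 2 they were Prim1 and Mcm5. Differences between these medians are therefore not the change of a single gene. The 4 genes named next were among those whose groups did not overlap, and on replicate 2 each was above every control. Rrm2 and Tyms, which make DNA precursors, rose by 3.01 ± 0.59 (adjusted p = 0.00759) and 0.97 ± 0.19 (adjusted p = 0.00755). Cdc45, a replication helicase subunit, rose by 1.91 ± 0.40 (adjusted p = 0.00978; 2 of 3 control arrays well above background), and Ccna2, the S phase cyclin, by 2.14 ± 0.52 (adjusted p = 0.017). Under normexp the dim Rrm2 and Cdc45 gave 1.84 and 0.72, still called. Without pre-miR-16 replicate 2 the count of these genes called higher was 16, without control replicate 3 or pre-miR-16 replicate 1 it was 3, and with spike-in scaling it was 11.

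The median level of G2 and mitosis genes was -2.36, -2.59 and -3.00 in the controls and -0.19, -1.03 and -0.02 in the pre-miR-16 cultures. This median spans genes of unlike brightness. It was the level of Cdk1 on pre-miR-16 replicate 2 and that of Tpx2 on the other arrays. Of 17 tested, 10 were called higher and 0 lower, with a median change of 1.52. The 7 not called, Cdk1, Ccnb2, Cdc20, Aurka, Kif11, Birc5 and Cenpf, had overlapping groups. On pre-miR-16 replicate 2 each of these lay among its controls, or below them for Birc5. Tpx2, which helps assemble the spindle, rose by 2.45 ± 0.19 (adjusted p = 2.19e-04), and Mki67, the proliferation marker Ki-67, by 2.39 ± 0.52 (adjusted p = 0.0115). Ccnb1 and Bub1b, a mitotic cyclin and a spindle checkpoint kinase, rose by 1.52 ± 0.32 (adjusted p = 0.00935) and 1.77 ± 0.39 (adjusted p = 0.0112), or by 0.78 and 0.80 under normexp. The count called higher was 17 without pre-miR-16 replicate 2 and with spike-in scaling, and 6 without pre-miR-16 replicate 1, without pre-miR-16 replicate 3 or without control replicate 3.

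Among kinase partners of the G1 cyclins and the inhibitors of these kinases, 5 of 9 tested genes were called higher and 1 lower, with a median change of 1.02. The 5 called higher were all inhibitors, and the 1 called lower was the partner Cdk4. Cdkn1a, the inhibitor p21, read 0.01, -0.50 and -0.21 in the controls and 1.86, 2.27 and 1.90 in the pre-miR-16 cultures, a rise of 2.24 ± 0.18 (adjusted p = 2.38e-04). The inhibitors Cdkn2c and Cdkn2a rose by 1.53 ± 0.14 (adjusted p = 4.88e-04) and 1.14 ± 0.10 (adjusted p = 3.69e-04). Cdkn1c, the inhibitor p57, stood well above background on 0 of the 3 control arrays and was at least 6.63-fold higher (adjusted p = 2.49e-04), a bound that sets the pre-miR-16 mean against the lowest signal well above background on each control array. The adjusted p given with a bound, here and below, is that of the limma fit on the levels as read, and the bound itself was not tested. Such bounds hold for the processed signal, and under normexp the log2 change of Cdkn1c was 1.12. Cdk4, like Cdk6 a partner of D cyclins, fell by 0.41 ± 0.11 (adjusted p = 0.0239), a call that was lost with spike-in scaling, with replicate number or slide as a block, and without any one of control replicates 1 and 2 and pre-miR-16 replicates 1 and 3. Cdk2, the partner of E cyclins, and Cdkn1b, the inhibitor p27, gave 0.04 ± 0.12 (adjusted p = 0.797) and -0.17 ± 0.13 (adjusted p = 0.335), Cdk2 with 2 of 3 control arrays well above background.

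Around E2f3, 1 of 11 retinoblastoma and E2F family genes was called higher and 3 lower, with a median change of -0.17. E2f7, a repressive E2F factor, was at least 5.31-fold higher by the same bound (adjusted p = 0.007), with a log2 change of 0.89 under normexp. Tfdp2, a dimer partner of E2F factors, fell by 0.73 ± 0.14 (adjusted p = 0.00674), while E2f5 and E2f2 fell by 0.57 ± 0.09 (adjusted p = 0.00376) and 0.55 ± 0.13 (adjusted p = 0.0165). With spike-in scaling 0 of these genes were called lower and 2 higher, and 2 were called higher without pre-miR-16 replicate 2. Rb1, the retinoblastoma gene, and E2f1 gave -0.17 ± 0.08 (adjusted p = 0.135) and 0.26 ± 0.13 (adjusted p = 0.148).

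Around Cdc25a, Wee1 and Chek1, 2 of 15 other checkpoint and CDK phosphorylation genes were called higher and 2 lower, with a median change of -0.08. Chek2, the sister checkpoint kinase of Chek1, rose by 0.86 ± 0.10 (adjusted p = 0.00135), a size close to that of Chek1 at its brighter probe, and like Chek1 it was smaller under normexp (0.23), where it was no longer called (adjusted p = 0.0643). Fbxw7, which marks cyclin E for degradation, rose by 0.36 ± 0.10 (adjusted p = 0.0226). Rad1 and Hus1, subunits of a clamp that activates Chek1, fell by 0.32 ± 0.09 (adjusted p = 0.0265) and 0.30 ± 0.10 (adjusted p = 0.0458). Rad9a, another subunit of that clamp, did not, at 0.04 ± 0.11 (adjusted p = 0.816). With spike-in scaling 4 were called higher and 0 lower. The count called higher was 4 without pre-miR-16 replicate 2 and 1 without control replicate 2, control replicate 3 or pre-miR-16 replicate 1. The count called lower was 0 without any one of the controls or pre-miR-16 replicate 1, and 1 without pre-miR-16 replicate 2 or 3.

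Letters like E2F binding sites were sought in the promoters of the members, 250 bases before to 50 after the start, in the RefSeq table for GRCm38.p6. The letters TTTCCCGC, TTTGGCGC, TTTCGCGC and TTTGCCGC were searched on both strands. The table holds 8 windows for 6 members, and 2 windows held a match, against 2.26% of all 32851 windows. These 2 windows, of Cdc25a and E2f3, are shown because they held a match, which is in capitals. The first runs on the plus strand at chr9:109875501-109875530 and the second on the minus strand at chr13:29986064-29986085.
Cdc25a: ggtgaattccgTTTGGCGCcaactaggaaa
E2f3: ttgaaaagccgGCGGGAAAtct
These matches begin 67 and 11 bases before the start, and the E2f3 match is TTTCCCGC on the opposite strand. The other E2f3 window and the windows of Cdk6, Ccne1, Chek1 and Ccnd3 held none of the 4 letter strings. Neither Cdc25a nor E2f3 was called, and a match is only a description of these letters.

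Genes upstream of the D cyclins in this tumour gave 4 calls higher and 3 lower of 14 tested, with a median change of 0.06. Egfr, a receptor of the ErbB family, rose by 3.26 ± 0.18 (adjusted p = 5.09e-05). The transcription factor genes Fos and Fosl1 rose by 0.86 ± 0.20 (adjusted p = 0.0155) and 0.92 ± 0.23 (adjusted p = 0.0169), and Etv5 was at least 2.68-fold higher by the bound (adjusted p = 0.00138), with a log2 change of 0.40 under normexp. Pgr, the progesterone receptor, read 0.49, 0.41 and 0.39 in the controls and -0.57, 0.11 and -0.61 in the pre-miR-16 cultures, a fall of 0.79 ± 0.20 (adjusted p = 0.0208), or -0.35 and not called with spike-in scaling. As for Cdc25a, replicate 2 lay nearest the controls. Erbb2 gave -0.02 ± 0.17 (adjusted p = 0.927). The 3 calls lower were 0 with spike-in scaling, without control replicate 1, without control replicate 3 and without pre-miR-16 replicate 3, and 1 without control replicate 2 or pre-miR-16 replicate 1.

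Markers of other cells also differed between the groups. Of 13 macrophage markers 12 were called higher and 0 lower, and their summed log2 level was 4.01 to 4.45 in the controls and 7.75 to 8.03 in the pre-miR-16 cultures. Their median change was 4.59, and Adgre1, Ptprc, Lyz2 and C1qc led this list. The marker that did not pass, Csf1r, went the other way. It read 1.17, 1.04 and 1.67 in the controls and 0.61, 1.25 and 0.47 in the pre-miR-16 cultures. The groups overlapped, and the change was -0.51 ± 0.26 (adjusted p = 0.144). For 2 of the 13, Ptprc and Mrc1, no control array was well above background, and with both set to their bounds the median was 3.60. Other markers were dim in part of the controls. Fcgr1 and Itgam cleared that limit in 1 control only, and Adgre1, C1qa, C1qc and Tyrobp in 2. The sizes of these rises are therefore uncertain, and both medians rest partly on control readings below the limit. Of 12 fibroblast markers, led by Col5a1, Col1a2, Col1a1 and Pdgfrb, 11 were called higher and 0 lower, with a median change of 3.81 and sums of 8.69 to 8.92 and 9.33 to 9.65. Dcn, the brightest of them, makes up a large part of those sums and did not pass, at 8.68 in the controls and 8.61 in the pre-miR-16 cultures on average. Of 12 markers of luminal epithelium 9 were called lower and 0 higher, with a median change of -0.59 and sums of 10.03 to 10.21 and 9.32 to 9.40, and 1 was called lower with spike-in scaling. Krt8, Krt18, Epcam and Cdh1, the called genes of this list with the smallest p, changed by -1.19, -0.95, -0.76 and -0.76. They lay above the 75th percentile on all 6 arrays. Among 6 tested markers of basal and myoepithelial cells 3 were called higher and 2 lower. None of 5 endothelial markers and 1 of 6 T cell markers passed the filter, and of 2 tested B cell markers Cd79b was called higher. The part of these cell types in the changes of Ccnd2, Cdk6, Chek1 or any other member was not tested, and in cultures measured in bulk fewer cells of a type and less RNA per cell cannot be told apart.

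The list genes with the pattern most like 3 of the members were taken by Pearson's r of the log2 level over the 6 arrays, out of 166 candidates. Since 6 arrays hold 2 groups, a difference between groups enters every r, and the values are descriptions. For Ccnd2 they were Cdkn1c (0.9996), Fn1 (0.9955) and Cdkn1a (0.9897), which share its high level on all pre-miR-16 arrays with replicate 2 highest. For Ccne1 they were Cdk1 (0.982), Ccnb2 (0.9796) and Aurkb (0.9698), which share its low replicate 2. On the controls, 0 of 3 arrays measured Cdkn1c or Aurkb above background, so their r rests partly on readings below that limit. For Ccnd1 they were Pkmyt1 (0.9857), Stat5b (0.9732) and Tfdp1 (0.9469), where replicate 2 is also the lowest array.

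Other genes that the literature lists as miR-16 targets changed in both directions. Of 21 tested, 8 were called higher and 6 lower, with a median change of -0.06. Ccnj, the cyclin J gene, read -2.61, -2.66 and -2.86 in the controls and -4.76, -4.64 and -4.68 in the pre-miR-16 cultures. It fell by 1.98 ± 0.10 (adjusted p = 4.07e-05), or by 1.07 under normexp, with like values on all 3 pre-miR-16 arrays, unlike Ccne1 and Cdc25a. Bcl2, an inhibitor of cell death, fell by 0.84 ± 0.13 (adjusted p = 0.00349). Reck was at least 3.12-fold higher by the bound (adjusted p = 1.19e-05), and Twist1 and Fgf7, genes of mesenchymal cells, rose by 3.04 ± 0.20 (adjusted p = 1.01e-04) and 2.89 ± 0.24 (adjusted p = 3.07e-04). For Twist1 and Fgf7 just 1 control array read well above background, so the sizes of these rises are uncertain. Under normexp the log2 changes of Reck, Twist1 and Fgf7 were 0.71, 1.18 and 1.12, and that of Bcl2 with spike-in scaling was -0.40 and not called. The count called lower was 1 with spike-in scaling, 2 without control replicate 2 and 3 without pre-miR-16 replicate 1. Dleu2 and Smc4, whose introns encode the 2 miR-16 loci, gave -0.13 ± 0.20 (adjusted p = 0.606) and -0.23 ± 0.18 (adjusted p = 0.343).

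At the same threshold, an adjusted p under 0.05, the calls of Ccnd2 and Cdk6 held in 23 of 23 settings of scaling, background, filter, probe choice, fit and replicates, and that of Chek1 in 22. At an adjusted p under 0.01 the call of Cdk6 was lost, and with a change of at least 2-fold required Ccnd2 alone was called. Ccne1 was called in 10 of the 23, with changes of 0.62 to 1.26 over all of them. Cdc25a was called lower in 2, with changes from -0.63 to 0.06. Ccne2 was called higher in 2 of 22 settings, with changes from -0.16 to 1.03, and Ccnd3 in 1 of 23. Ccnd1, Wee1 and E2f3 were called in none of the 23, and their estimates were above 0 with spike-in scaling. At an unadjusted p under 0.05 in limma 0 members were lower, and limma with array weights called Cdc25a lower (-0.45, adjusted p = 0.042).

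**Figure D4:**
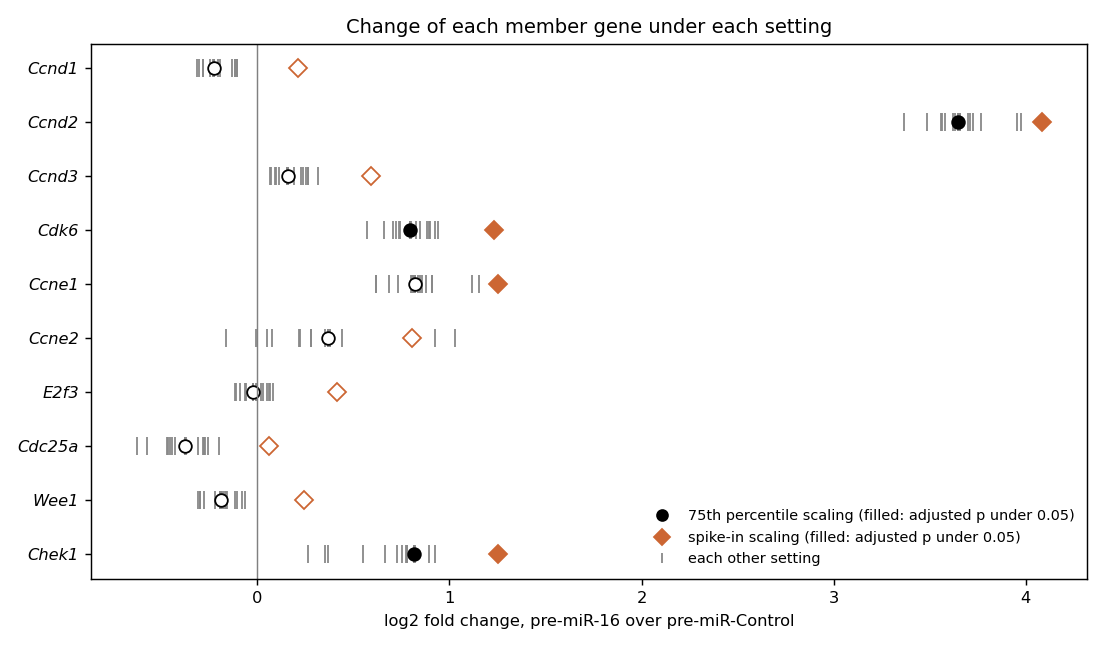
Log2 fold change of each gene, pre-miR-16 over pre-miR-Control, with 75th percentile scaling (circles), spike-in scaling (diamonds) and every other setting (ticks); filled symbols have an adjusted p under 0.05. Ccnd2 lies between 3.37 and 4.09 throughout, Chek1 spreads from 0.26 to 1.25, and the estimates of Ccnd1, Cdc25a and Wee1 are below 0 except with spike-in scaling.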

How the data were processed

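Agilent Feature Extraction 9.5.3.1 subtracted background and detrended each array, per the file headers, and its processed spot intensity, not scaled between arrays, was the value used. The raw intensity of spots and of their local background, as deposited, served the normexp alternatives. The authors' deposited series table holds log2 values with column medians of 6.79 to 6.81, scaled between arrays in a way that no source used here gives. Probe positions are those of build mm7 (NCBI35), per the file headers; no annotation of exons on that build was used.

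Control spots and outlier spots (74 to 113 per array) were left out of 43379 non-control spots, spots of a probe were averaged, and log2 signals were centred on the array's 75th percentile. Probes passed the filter on dim signal if, on each of the 3 arrays of a group, a share of 0.5 or more of their spots was well above background (23827 probes), and a gene took its brightest kept probe (16702 genes). Groups were compared in R 4.3.3 with limma 3.58.1 (lmFit, eBayes without trend; version 1.17.8 of data.table), and p-values were adjusted over all genes, or over all kept probes for single probes. Member probes were found by the files' gene names. For the tests all 41174 probes, theirs included, were named by accession (22951), current symbol (6659) or the files' name (11564). The code was tested on simulated data.

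The 10 members, the 16 gene lists and the rule for naming genes were chosen with earlier results of these data known. All members are named with every probe, then up to 4 called genes per list with the smallest p and no overlap between groups, a set of cell cycle, host and receptor genes whatever their values, and 3 genes most like each of 3 members. Alternatives changed scaling, background correction, filter, probe choice, weights, blocks, threshold and replicates.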

Additional observations from a re-analysis of the deposited data

How the results depend on the processing

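Of the 10 members, 3 were called higher and 0 lower. With array weights these counts were 6 and 1, and with a threshold of at least 2-fold 1 was called higher. Leaving out 1 array at a time gave 3 to 5 called higher and 0 to 1 called lower, the upper values without pre-miR-16 replicate 2. The members' median change of 0.26 became 0.698 with spike-in scaling, 0.491 with array weights and -0.00917 with slide as a fixed block, and ranged from 0.0711 to 0.456 with 1 array left out. No member that was called changed sign in any setting. The other settings, among them quantile normalization, normexp, the authors' deposited log2 values and other filters, gave 2 to 4 called higher and 0 lower. The cause of these shifts was not tested.

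Deviations of same-numbered arrays from their group means had correlations of -0.09, -0.03 and -0.003. With 3 arrays per group these values cannot settle whether the replicate number pairs the samples. The numbering of pre-miR-16 replicates 1 and 2 is also in doubt, as given above. The fit with a replicate block called 3 members higher and 0 lower, with 6529 genes called in all against 8197. Signal over background limits Ccne2, Wee1, Chek1 and the dimmer probes of Cdc25a and Cdk6, which lie within a few log2 units of the lowest level well above background (-5.58 to -5.07). Spike-in amounts are not given in the sources used here.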
